A study of Mus musculus with 516 samples.

Results

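Cholesterol synthesis and sterol transport were followed through 9 genes in cells dissociated from mouse dorsal root ganglia, where sensory neurons have their cell bodies. The 9 genes were chosen by name from the 11251 genes of the count table, with earlier results of these data known, and all 9 were found. Of these, 7 encode enzymes of cholesterol synthesis (Hmgcs1, Mvd, Fdps, Fdft1, Lss, Cyp51 and Dhcr7), Insig1 encodes a sterol-responsive regulator and Abcg1 encodes a sterol exporter. Each is described in neuron-like, glia-like and fibroblast-like cells of 2 mouse strains, before and after culture.

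Cells build cholesterol from acetyl units by way of mevalonate, isoprenoid diphosphates, squalene and lanosterol. The enzymes are switched on together by the transcription factor SREBP2 when sterol in the endoplasmic reticulum is low, and INSIG proteins hold that factor back when sterol is plentiful. Excess sterol activates the LXR receptors, whose targets Abca1 and Abcg1 load cholesterol onto lipoproteins. In peripheral nerve, Schwann cells make much cholesterol for myelin, and growing axons need sterol for new membrane.

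The study captured 516 cells, 306 naive and 210 cultured, of the strains C57BL/6 and CAST/Ei, the latter a wild-derived inbred strain. The cultured cells of CAST/Ei numbered 99. Naive cells carried no treatment beyond dissociation, whereas cultured cells were labelled as in vitro axotomy, and had spent 48 h on bare plastic, with ara-c, which stops dividing cells, added after 24 h, before trypsin released them. All cells, naive ones included, had been dissociated from ganglia, passed through a mesh, spun on Percoll to remove myelin debris and captured on a Fluidigm C1 microfluidic chip. The labels name no genotype beyond the strain, and nothing states a cell's age, sex, animal, culture or chip. Each group is therefore 1 sample: no p-value is given, and differences could not be set against the spread between animals. Values are reads summed over the cells of a class in a group per 1000000 summed reads (CPM), with exact 95% Poisson intervals, and ratios are log2 of CPM + 1. Reads carried no molecular identifiers, so intervals cover counting error only. A difference of at least 2-fold is reported against the share of all genes with at least 5 CPM in either sum that differed as much in that direction.

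Total reads per cell ran from 13932 to 2978345, with group medians between 696013 and 1111710. Clustering without any sterol or fatty acid gene gave 15 clusters. Neuron-like clusters held 241 naive cells, of which 85 were C57BL/6 and the rest CAST/Ei, or 64.4% and 89.7% of the naive cells of each strain. They also held 34 cultured cells of C57BL/6 (30.6%) and 65 of CAST/Ei (65.7%). Glia-like cells numbered 34 in C57BL/6 and 24 in CAST/Ei cultures, and fibroblast-like cells 43 and 10. No naive cell fell in a glia-like or fibroblast-like cluster, so a share under 2.27% (C57BL/6) or 1.72% (CAST/Ei) could have been missed. That limit does not cover glial or mixed cells within the unnamed naive clusters described below. The glia-like class held different clusters in the strains: 31 of the 34 C57BL/6 cells lay in cluster 9, led by Sfrp1 and cell division genes, and all 24 CAST/Ei cells in cluster 12, led by Gdnf and Gfap. Left unnamed were cluster 6, 34 naive cells with the endothelial gene Flt1 among its leading genes, and cluster 8, 31 naive C57BL/6 cells with the pericyte gene Rgs5 among theirs. Cluster 8 had a mean log2 level of 8.98 for neuron and 2.52 for pericyte markers. Th was among its leading genes, as in cluster 10, CAST/Ei cells kept as neuron-like. The naive neuron-like shares of the strains thus depend on this naming. Cluster 6 had means of 6.25 for neuron, 4.97 for glial and 3.95 for endothelial markers. Glial marker RNA in neuron-like cells was not equal. The 17 glial markers found in the table summed to 1939 and 2500.4 CPM in naive C57BL/6 and CAST/Ei cells. In cultured cells they summed to 3703 and 3485 CPM. Pmp22 alone made up 923 and 1975 CPM of the naive sums and 1003 and 1076 CPM of the cultured ones. Between naive strains, 2 glial markers were at least 2-fold higher in CAST/Ei and 4 lower (median log2 ratio -0.24). Against naive cells, 14 were higher and 1 lower in cultured C57BL/6 cells, and 12 and 0 in CAST/Ei. The 18 fibroblast markers found summed to 540 and 566 CPM in naive and to 1557 and 2680.4 CPM in cultured neuron-like cells. Of the naive fibroblast sums, Dcn alone made up 325 and 350 CPM. In each of the 4 fibroblast sums no listed gene found in the table was without a read. The part of these markers in the results was not tested.

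Promoter sequence bears on the members because SREBP2 acts through sterol response elements next to CCAAT boxes. Windows from 250 bases before to 50 after the start were at hand for 6 of the 9 members (RefSeq, GRCm38.p6): Hmgcs1, Mvd, Lss, Cyp51, Insig1 and Dhcr7, the last with 3 starts. A sterol response element, searched as TCACNCCAC on both strands, was found in Hmgcs1 only, upstream of its start. Only these exact letters were searched, so the other windows were not shown to lack an element. In comparison, 1.24% of 32851 mouse windows hold these letters. A CCAAT box, on either strand, lay in at least 1 window of all 6 genes, and in Dhcr7 only at the third start. Of all windows, 37.4% held this box, a share per window and not per gene. The searched letters do not overlap, and a match is a description of sequence, not evidence of binding. The stretches that hold the boxes upstream of the starts are shown 5′ to 3′ along each gene's own strand, with the sterol response element and CCAAT boxes (ATTGG where on the other strand) in capitals. A further ATTGG of Hmgcs1, 10 to 14 bases after the start, is outside the stretch. The stretches lie at chr13:119690102-119690322 (Hmgcs1, plus strand), chr8:122443433-122443494 (Mvd, minus), chr10:76531531-76531559 (Lss, plus), chr5:4104710-4104738 (Cyp51, minus), chr7:143830117-143830181 (Dhcr7, plus) and chr5:28071184-28071212 (Insig1, plus).
Hmgcs1: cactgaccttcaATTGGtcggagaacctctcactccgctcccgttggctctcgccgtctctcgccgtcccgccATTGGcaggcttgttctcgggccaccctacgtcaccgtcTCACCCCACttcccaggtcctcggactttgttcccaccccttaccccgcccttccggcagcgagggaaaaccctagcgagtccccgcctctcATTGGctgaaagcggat
Mvd: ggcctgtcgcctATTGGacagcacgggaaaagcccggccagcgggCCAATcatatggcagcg
Lss: ggtgatgctctgATTGGccgagctcgcat
Cyp51: cgctgtccgccaCCAATctggtcctgaga
Dhcr7: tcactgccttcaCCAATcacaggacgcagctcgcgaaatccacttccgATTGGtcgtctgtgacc
Insig1: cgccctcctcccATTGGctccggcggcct

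Levels of the 9 genes can be compared with each other only per length, here CPM per kilobase of annotated exon. On that scale Hmgcs1, which condenses acetyl units to HMG-CoA, stood far above the rest in naive C57BL/6 neuron-like cells with a level of 485. Levels of 68.2 for Abcg1, 59.8 for Fdft1 and 46.5 for Insig1 came next. Cyp51 was at 15.6, Mvd at 10.2, Fdps at 7.58, Dhcr7 at 3.58 and Lss at 1.22. In naive CAST/Ei cells Hmgcs1 again led with 1205, before Abcg1 with 70.7 and Fdft1 with 59.7, while Fdps, at 5.87, was lowest. Hmgcs1 was thus the most abundant member, and it led in each of the 8 sums of a class in a group.

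**Figure D1:**
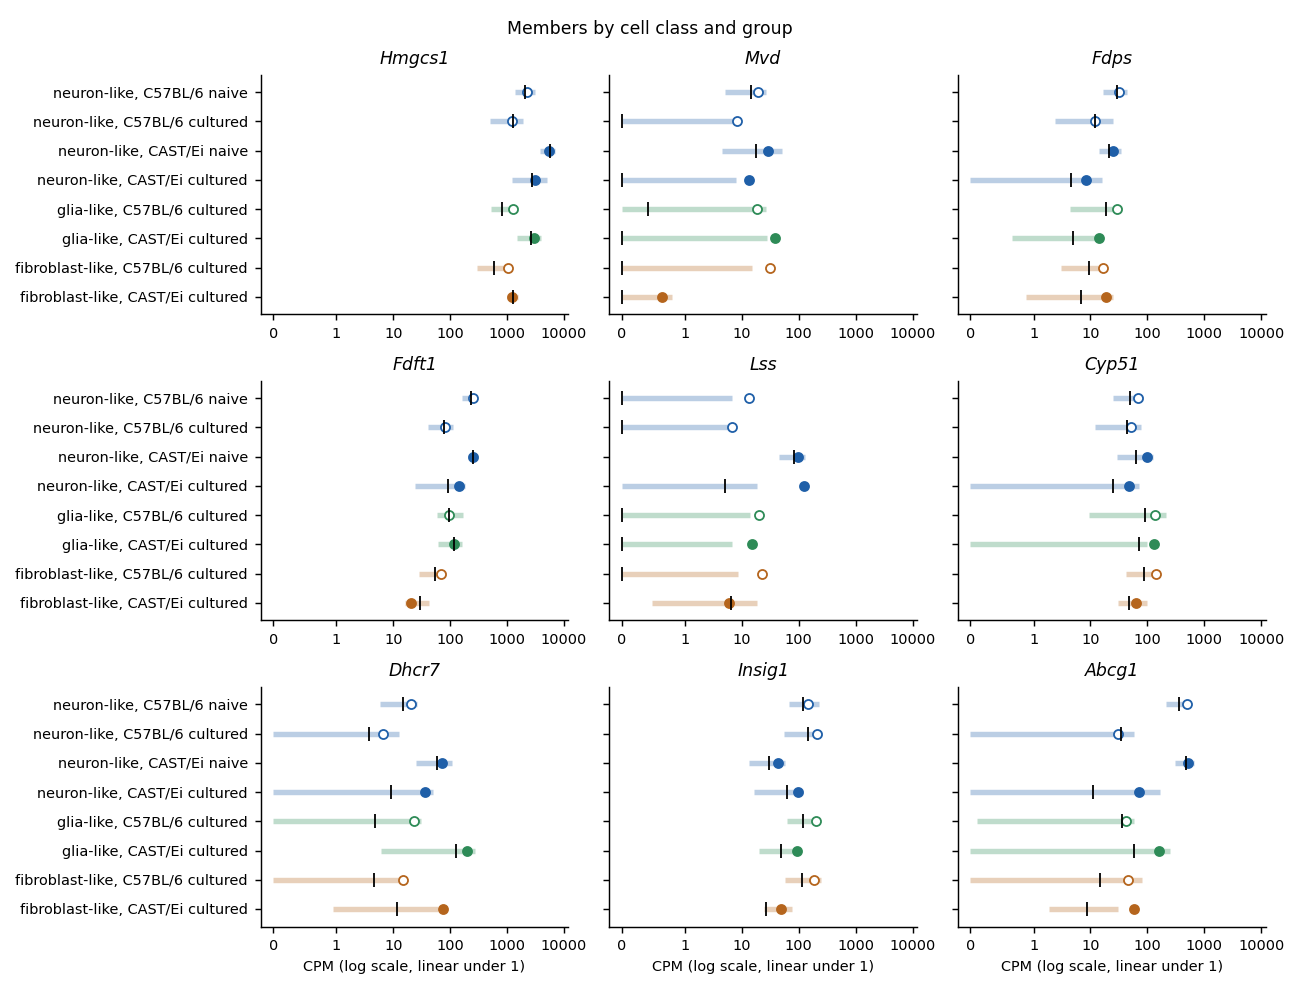
Level of each member in the 8 sums of a cell class in a group, as CPM on a log axis that is linear under 1. Circles are summed reads (open C57BL/6, filled CAST/Ei), pale bars span the interquartile range of the cells and black ticks mark the median cell. Abcg1 stands apart in naive neuron-like cells, at 498 and 516 CPM, against 30.2 to 162.02 CPM in the cultured sums.

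Abcg1 showed the widest gap between naive and cultured neuron-like cells. Its product moves cholesterol out of cells onto lipoproteins, and the gene lies on chromosome 17 (31057675 to 31117988, plus strand, GRCm38). Naive neuron-like cells held 498 CPM (492 to 503) in C57BL/6 and 516 CPM (512 to 519) in CAST/Ei. Cultured neuron-like cells held 30.2 CPM (27.7 to 32.9) and 72.6 CPM (70.6 to 74.6). The naive levels were thus 16.5-fold (15.1 to 17.9) and 7.11-fold (6.91 to 7.32) above the cultured ones. Cell by cell, the naive C57BL/6 median was 363 CPM (interquartile range 214 to 597) and the cultured one 34.1 CPM (0 to 57.1). In CAST/Ei the medians were 479 CPM (308 to 651) and 11.04 CPM (0 to 165.7). The interquartile ranges did not overlap in either strain, although single cultured cells reached 345 and 1407 CPM. No read of Abcg1 was found in 10 of 34 and 26 of 65 cultured neuron-like cells, against none of the 241 naive ones. With every cell thinned to 200000 reads, at least 5 reads of Abcg1 were present in 96.2% (89.3 to 99.2) of naive C57BL/6 cells and 53.6% (33.9 to 72.5) of cultured ones. The CAST/Ei shares were 97.97% (94.2 to 99.6) and 48.3% (35.0 to 61.8), and without thinning the shares were 96.5, 52.9, 99.4 and 50.8%. Thinning left out 6 naive and 6 cultured C57BL/6 and 8 and 7 CAST/Ei cells with fewer reads.

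The synthesis enzymes were mostly lower in cultured than in naive neuron-like cells, by less. In C57BL/6, 4 of the 7 enzymes were at least 2-fold lower and none higher (median log2 ratio -1.13), and with Abcg1 5 of the 9 members were lower. Among all 10625 genes measured there, 23.3% were at least 2-fold lower and 21.7% higher (median -0.11). In CAST/Ei, 3 of the 7 enzymes were lower and none higher (median -0.996). Abcg1 makes 4 lower members of 9 and Insig1 is the 1 that was higher, where 22.6% of 10809 genes were lower and 23.5% higher (median 0.04). The shares of members that were lower, 5 and 4 of 9, stand above these backgrounds, but genes of 1 pathway are not independent. The members were also chosen with earlier results of these data known, so such an excess can come from the choice. With a pseudocount of 10 CPM the members lower were 2 and 1 of 9, where 12.5% and 12.1% of all genes were lower, so in CAST/Ei the count was then no higher than the background.

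Along the pathway, the early members Hmgcs1, Mvd and Fdps had like summed ratios in the strains, Mvd only with all cells kept. This covers members only: Pmvk, also of the early arm, was at -1.09 in C57BL/6 and -2.33 in CAST/Ei. Hmgcs1 had 2228 CPM (2217 to 2239) in naive and 1221 CPM (1205 to 1238) in cultured C57BL/6 cells. In CAST/Ei the levels were 5534 CPM (5522 to 5545) and 3059 CPM (3046 to 3072), so naive levels were 1.82-fold and 1.81-fold higher. Mvd, which makes isopentenyl diphosphate, had 18.9 and 8.08 CPM in naive and cultured C57BL/6 cells and 29.01 and 13.2 CPM in CAST/Ei cells. The log2 ratios of Mvd were -1.13 and -1.08, but 1 cell held 62.2% of the cultured CAST/Ei reads, and without it the CAST/Ei ratio was -2.30. Fdps, which joins isoprenoids to farnesyl diphosphate, had 31.9 and 12.2 CPM in C57BL/6 and 24.7 and 8.41 CPM in CAST/Ei cells, with log2 ratios of -1.32 and -1.45. Exons of Fdps share 1124 bases with Gm43738, which is not in the table, so reads of these genes cannot be told apart.

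The summed ratios of the members from squalene onward were less alike, and single cells moved several of them. Other genes of these steps could be alike, as Sc4mol at -1.03 in C57BL/6 and -0.95 in CAST/Ei. Fdft1, squalene synthase, had 253 and 81.3 CPM in naive and cultured C57BL/6 cells (log2 ratio -1.62) and 252 and 142.6 CPM in CAST/Ei cells (-0.82). Without the cultured CAST/Ei cell with most Fdft1 reads, the CAST/Ei ratio was -1.21. Fdft1 exons share 774 bases with Ctsb, the gene of the lysosomal protease cathepsin B, so reads of Ctsb could have been counted here. Cyp51, which strips a methyl group from lanosterol, had 68.9 and 52.5 CPM in C57BL/6 (-0.39) and 99.5 and 48.1 CPM in CAST/Ei cells (-1.03). Leaving out the naive CAST/Ei cell with most Cyp51 reads put that ratio at -0.99, just inside 2-fold. Exons of Cyp51 overlap those of Akap9, a scaffold protein gene in the table. Dhcr7, whose enzyme makes cholesterol in the last step of one branch, had 20.8 and 6.70 CPM in C57BL/6 (-1.50) and 72.1 and 35.7 CPM in CAST/Ei (-0.996, just short of 2-fold on this scale, or -1.20 without the cultured cell with most reads). Lss, which folds squalene epoxide into lanosterol, had 13.2 and 6.75 CPM in C57BL/6 cells (-0.87, or -1.11 without the cultured cell with most reads). In CAST/Ei cells the summed level of Lss was 95.5 CPM naive and 122.7 CPM cultured (0.36). That sum does not describe most cells: 1 cultured CAST/Ei cell with 2700.5 CPM held 77.2% of the reads, and another, with far fewer reads in all, reached 3111 CPM. Without the cell that held most reads the level was 28.95 CPM and the ratio -1.69, and the median cell had 84.1 CPM naive and 4.98 CPM cultured.

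Insig1, whose protein holds back SREBP2, lay on the other side of 0. It had 143.9 CPM (141.1 to 146.8) in naive and 212 CPM (206 to 219) in cultured C57BL/6 neuron-like cells, and 42.6 CPM (41.6 to 43.7) and 96.5 CPM (94.2 to 98.9) in CAST/Ei cells. Cultured levels were 1.47-fold and 2.26-fold higher (log2 ratios 0.56 and 1.16). The interquartile ranges overlapped, at 66.7 to 228 and 55.9 to 258 CPM in C57BL/6 and at 13.3 to 58.02 and 16.6 to 117.4 CPM in CAST/Ei. The C57BL/6 ratio depended on how cells were averaged: as a mean of log2 values per cell it was -0.34, and in CAST/Ei it was 0.54.

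**Figure D2:**
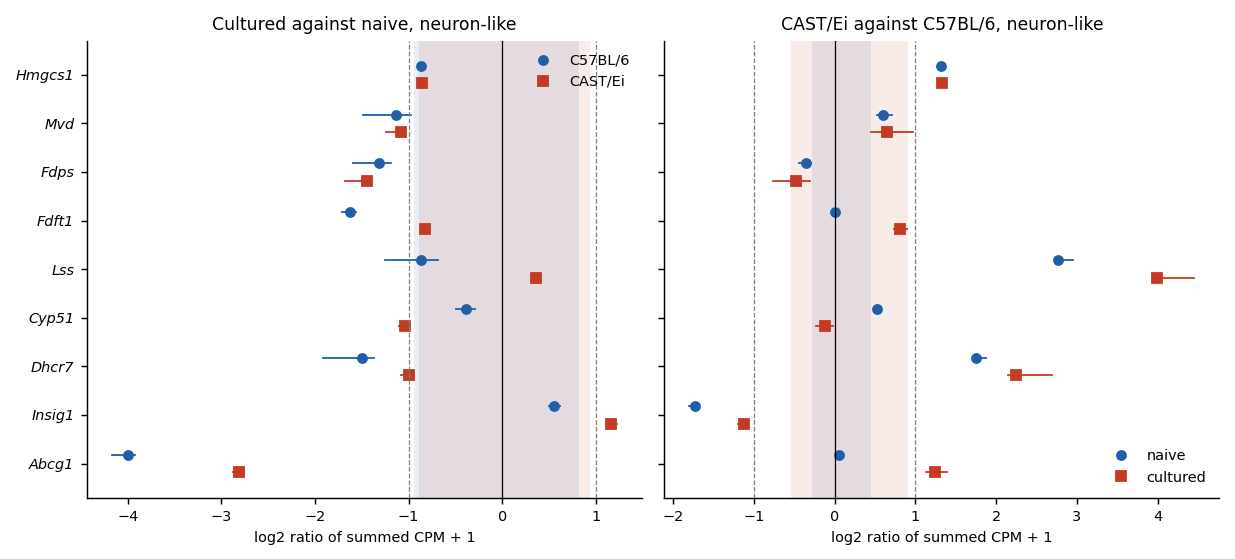
Log2 ratios of the members in neuron-like cells, cultured against naive (left) and CAST/Ei against C57BL/6 (right). Points are ratios of summed CPM + 1, thin lines are 95% counting intervals of the fold, shaded bands span the interquartile range of all genes for the same 2 comparisons and dashed lines mark 2-fold. Abcg1 lies at -3.997 and -2.81 on the left, and Lss at 2.77 and 4.00 on the right.

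Other genes of the pathway were mostly lower in culture in the early arm. Of the 8 genes of the mevalonate arm, 5 were at least 2-fold lower and none higher in C57BL/6 (median log2 ratio -1.11), and likewise 5 and none in CAST/Ei (-1.26). Beside Mvd and Fdps these were the thiolase Acat2 (-1.19 and -1.61) and the kinases Mvk (-1.62 and -1.99) and Pmvk (-1.09 and -2.33). Of 14 genes from squalene to cholesterol, 5 were lower and 2 higher in C57BL/6 (median -0.62). In CAST/Ei 3 of these were lower and 2 higher (-0.67). Among all genes, 23.3% were lower and 21.7% higher in C57BL/6, and 22.6% and 23.5% in CAST/Ei. The CAST/Ei counts from squalene to cholesterol were thus not above the all-gene shares. Both lists include members already counted above. Tm7sf2, a sterol reductase, was lower at -2.49 and -3.11, while Lbr, a nuclear membrane protein with the same reductase activity, was higher at 1.73 and 1.34. Sqle, which oxidises squalene, was within 2-fold at 0.70 and -0.04. Among 7 SREBP control genes none passed 2-fold in C57BL/6. In CAST/Ei 3 were higher, Insig1, the protease gene Mbtps2 (2.32) and Srebf1 (1.52), and 1 was lower, Srebf2 (-1.43), the gene of SREBP2, which was at -0.98 in C57BL/6.

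Genes of sterol uptake, storage and export lay on both sides of 0. Abca1, the partner exporter of Abcg1, had 66.2 CPM in naive and 436 CPM in cultured C57BL/6 neuron-like cells but 180 and 191 CPM in CAST/Ei (log2 ratios 2.70 and 0.08). Abca1 and Abcg1 thus lay on opposite sides of 0 in C57BL/6. Among the 6 genes of efflux and LXR signalling, Abcg1 included, 3 were lower and 1 higher in C57BL/6. In CAST/Ei 3 were lower and none higher. Of all genes, 23.3% and 22.6% were lower in C57BL/6 and CAST/Ei. Apoe, the lipoprotein component made by glia, was at -0.86 and -0.41. Among 15 uptake and transport genes 4 were higher and 1 lower in C57BL/6, and 3 and 1 in CAST/Ei, so the higher genes were near the all-gene shares of 21.7% and 23.5%. The lower one was Gramd1b, a sterol carrier, in both strains (-1.83 and -2.52). Higher in both strains were the lipoprotein receptor Vldlr (1.77 and 3.56) and Mylip, a ubiquitin ligase that removes lipoprotein receptors (1.75 and 2.17). The sterol carrier Stard4 was at 2.60 and -0.83. Soat1, which esterifies cholesterol for storage, was higher at 1.54 and 2.45. In the fatty acid synthesis list, of which 11 genes passed the filter, 1 was higher in either strain (Me1, a source of NADPH, 2.48 and 1.11) and 1 was lower in C57BL/6 (Elovl6, a fatty acid elongase, -1.05).

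The members differed within the cultured neuron-like class. Nearly all of its cells lay in cluster 1 (23 C57BL/6 and 33 CAST/Ei cells) or cluster 5 (10 and 31 cells). These had like neuron marker means but unlike glial and fibroblast ones. The mean log2 of the glial markers was 5.70 and 5.68 in cluster 1, and 2.95 and 3.54 in cluster 5, against 2.64 and 2.62 in naive neuron-like cells. Fibroblast marker means were 3.70 and 4.33 in cluster 1, and 1.69 and 2.52 in cluster 5, against 1.05 and 1.31 in naive neuron-like cells. The 7 enzymes together had 2035 and 303 CPM in clusters 1 and 5 of C57BL/6 cells, and 5291 and 2111 CPM in those of CAST/Ei cells. Abcg1 had 40.02 and 12.2 CPM in C57BL/6 and 166.6 and 11.2 CPM in CAST/Ei, and in cluster 1 stood near the levels of glia-like cells, 42.96 and 162.02 CPM. Insig1 differed less, with 230.05 and 190.3 CPM in C57BL/6 and 100.2 and 95.7 CPM in CAST/Ei. The summed enzymes and Abcg1 were thus lower in the cluster with less glial and fibroblast marker RNA, in either strain. The enzyme sums are mostly Hmgcs1, at 1790 and 265 CPM in clusters 1 and 5 of C57BL/6 cells. For CAST/Ei cells Hmgcs1 had 4891 and 1763 CPM in these clusters. In C57BL/6 every single enzyme was also lower in cluster 5. In CAST/Ei, 2 single enzymes were higher in cluster 5: Lss, with 29.2 CPM in cluster 1 and 186 CPM in cluster 5, and Mvd, with 11.7 and 14.6 CPM. Taking cluster 5 alone as the cultured cells, a choice made after seeing the data, Abcg1 was at -5.24 and -5.40 against naive cells, and 8 and 6 of the 9 members were at least 2-fold lower. In that setting 51.3% of all genes were lower by 2-fold or more in C57BL/6, and 22.4% higher (median -1.11). The CAST/Ei shares were 32.8% lower and 26.5% higher (median -0.07).

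**Figure D3:**
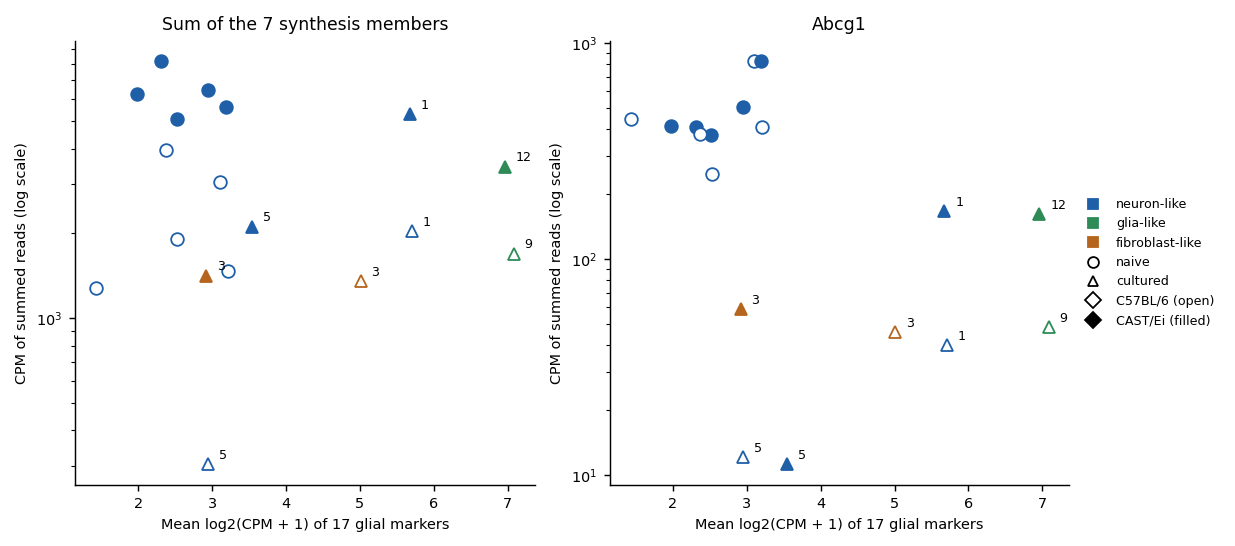
Summed level of the 7 enzymes (left, mostly Hmgcs1) and of Abcg1 (right), in CPM on a log axis, against the mean log2 level of the glial markers. Each symbol is the cells of 1 group in 1 named cluster with at least 5 cells; numbers name the clusters of cultured cells. Cultured clusters 1 and 5 differ along both axes, and all naive clusters lie above the cultured ones for Abcg1.

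The strains differed in 4 members already before culture. In naive neuron-like cells, Lss, Dhcr7 and Hmgcs1 were at least 2-fold higher in CAST/Ei than in C57BL/6, and Insig1 lower. That is 3 of 9 members higher and 1 lower, where 8.31% of 10410 genes were higher and 6.56% lower (median 0.09). Lss was 7.25-fold higher (6.78 to 7.77), at 95.5 against 13.2 CPM. Its median naive cell had 84.1 CPM in CAST/Ei and no read in C57BL/6, and the interquartile ranges, 44.3 to 131.2 and 0 to 6.83 CPM, did not overlap. After thinning, 86.5% (79.9 to 91.5) of CAST/Ei and 16.5% (9.06 to 26.5) of C57BL/6 naive cells had at least 5 Lss reads, or 95.5 and 25.9% without thinning. Dhcr7 was 3.46-fold higher (3.28 to 3.67), with medians of 58.3 CPM (25.2 to 106.8) and 15.1 CPM (5.81 to 25.8) whose interquartile ranges overlapped narrowly. Hmgcs1 was 2.48-fold higher (2.47 to 2.50), with medians of 5607 CPM (3743 to 6991) and 2076 CPM (1400 to 3124). Insig1 was 3.38-fold higher in C57BL/6 (3.27 to 3.48), with medians of 118.4 CPM (66.7 to 228) and 30.5 CPM (13.3 to 58.02). Lss exons share 381 bases and Hmgcs1 exons 557 bases with antisense genes that are not in the table, and no source used here says whether counting used strand. Whether alignment to mm10, an assembly of C57BL/6J, moved the CAST/Ei values here and in the strain comparisons below was not tested.

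The other 5 members lay within 2-fold between naive strains. Cyp51 had 99.5 and 68.9 CPM in CAST/Ei and C57BL/6, and Mvd 29.01 and 18.9 CPM. Fdps had 24.7 and 31.9 CPM. Fdft1 was the closest match, with 252 CPM (250 to 255) and 253 CPM (249 to 257), and Abcg1 had 516 and 498 CPM. Of genes beside the members, Apoe was lower in CAST/Ei (299 against 815 CPM), and Abca1 was higher (180 against 66.2 CPM). The mevalonate arm as a list, members included, had 1 gene higher and 2 lower of 8, and the sterol branch 2 higher and 1 lower of 14. Their medians were 0.28 and 0.18, and 8.31% of all genes were higher and 6.56% lower.

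The strains' neuron-like cells fell partly in different clusters, so the 4 genes were also read within clusters. Over 5 clusters a strain, Hmgcs1 ran from 977 to 3498 CPM in C57BL/6 and from 4659 to 7508 CPM in CAST/Ei. Lss ran from 2.74 to 20.7 and from 68.1 to 122.5 CPM, and Dhcr7 from 5.63 to 33.02 and from 51.6 to 92.8 CPM. Cluster values of these 3 genes did not overlap between strains, while Insig1 did so slightly, at 62.7 to 202 and 26.6 to 66.4 CPM. Clusters 4 and 14 held at least 5 cells of each strain. In cluster 4, led by Tac1 and Trpv1, genes of peptidergic pain neurons, Lss had 90.8 CPM in 27 CAST/Ei and 20.7 CPM in 23 C57BL/6 cells, Hmgcs1 5857 and 2511 CPM, Dhcr7 78.4 and 33.02 CPM, and Insig1 66.4 and 170.6 CPM. In cluster 14, led by Sst and Nppb, genes of itch neurons, 13 CAST/Ei and 6 C57BL/6 cells had 68.1 and 2.74 CPM of Lss and 5837 and 977 CPM of Hmgcs1. Dhcr7 was at 54.5 and 10.5 CPM and Insig1 at 32.9 and 62.7 CPM there. The directions were the same in both clusters as in the sums.

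**Figure D4:**
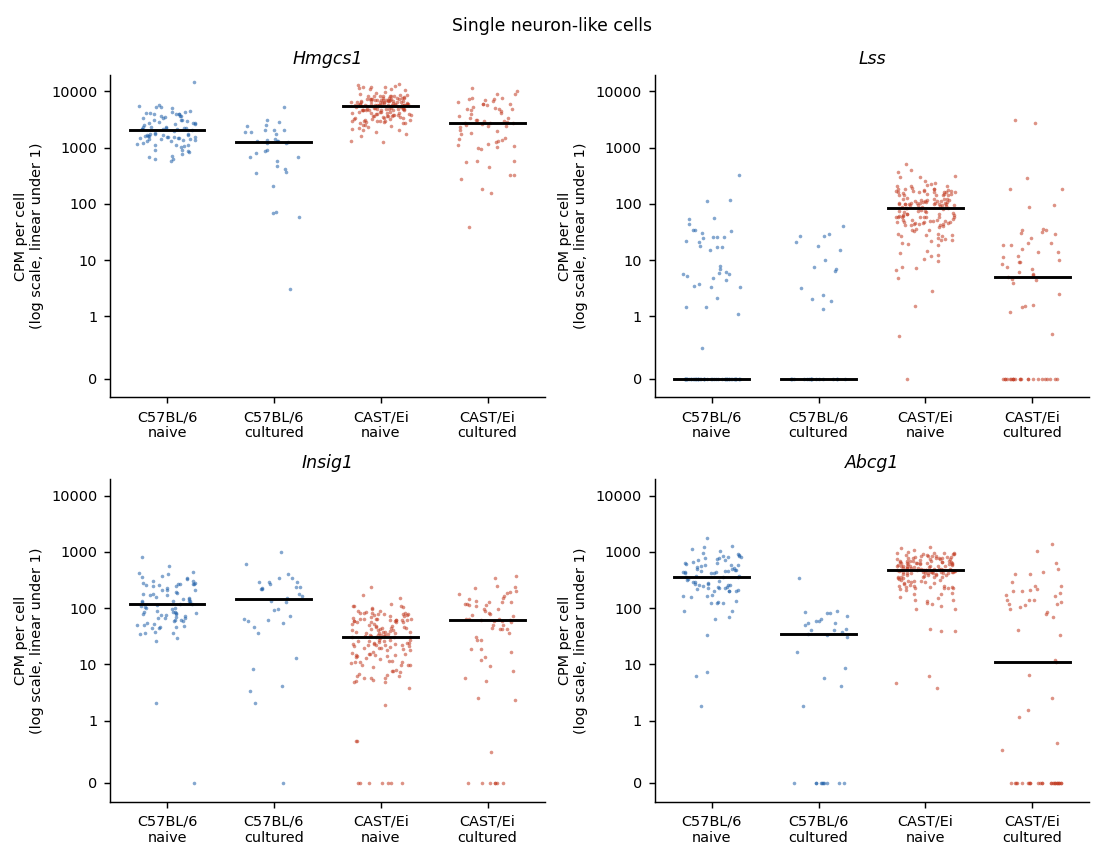
CPM of Hmgcs1, Lss, Insig1 and Abcg1 in every neuron-like cell of the 4 groups, on a log axis that is linear under 1; black lines are medians. Naive CAST/Ei cells stand above naive C57BL/6 cells for Lss, with medians of 84.1 and 0 CPM, and 2 cultured CAST/Ei cells lie at 2700.5 and 3111 CPM.

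After culture, 4 of 9 members were higher in CAST/Ei neuron-like cells (Lss, Dhcr7, Hmgcs1 and Abcg1) and 1 lower (Insig1), where 22.5% of genes were higher and 14.1% lower (median 0.19). These values use the cultured cells already described, and are set beside the naive ones, not counted as a second observation. Mvd was within 2-fold at a log2 ratio of 0.65, but at -0.58 without 1 CAST/Ei cell and at 1.05 without 1 C57BL/6 cell. Hmgcs1 was 2.50-fold higher (2.47 to 2.54), close to its naive ratio. Dhcr7 had 35.7 against 6.70 CPM and a ratio of 5.32 (4.43 to 6.44). Lss was 18.2-fold higher in the sums, and without the 1 cell named above its log2 ratio was 1.95 in place of 4.00. Insig1 was 2.20-fold higher in C57BL/6 (2.11 to 2.29), but without 1 C57BL/6 cell its log2 ratio was -0.78, inside 2-fold. Abcg1 was 2.40-fold higher in CAST/Ei, a difference of the sums that lay in cluster 1: with cluster 5 alone the log2 ratio turned to -0.10. The median cell lay the other way, at 11.04 CPM in CAST/Ei and 34.1 CPM in C57BL/6. Shares of cells with at least 5 reads after thinning were 48.3% and 53.6%. The 2-fold difference held in 8 of 15 alternatives.

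Cultured glia-like and fibroblast-like cells give further pairs of strains, with the glial clusters differing as described. Dhcr7 had 199 CPM in CAST/Ei against 23.5 CPM in C57BL/6 glia-like cells, an 8.47-fold difference (7.84 to 9.17). In fibroblast-like cells it had 73.5 against 15.1 CPM, 4.88-fold (4.43 to 5.39), but 61.7% of the CAST/Ei reads came from 1 cell. Insig1 was lower in CAST/Ei in both classes, at 91.3 against 205 CPM and at 47.9 against 184 CPM. Hmgcs1 was 2.32-fold higher in CAST/Ei glia-like cells (2941 against 1269.95 CPM) and 1.16-fold higher in fibroblast-like cells (1233 against 1059.6 CPM). Lss did not share the direction seen in neuron-like cells: it had 14.9 against 19.7 CPM in glia-like and 5.85 against 22.4 CPM in fibroblast-like cells. Dhcr7 was thus higher, and Insig1 lower, in CAST/Ei in all 4 kinds of cell compared. Of these 4, Lss was higher in CAST/Ei in the naive and cultured neuron-like sums. Glia-like and fibroblast-like cells were seen in culture only. There the median neuron-like cell, too, had little Lss, at 4.98 CPM in CAST/Ei and 0 CPM in C57BL/6. In the unnamed naive cluster 6, Lss had 120 CPM in CAST/Ei and 13.1 CPM in C57BL/6 cells. Whether the strain difference varies with cell class or culture was not tested.

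Against cultured neuron-like cells, glia-like cells held more of most enzymes. In C57BL/6, 5 of 9 members were at least 2-fold higher and none lower (median log2 ratio 1.10), where 29.3% of all genes were higher and 20.2% lower (median 0.35). These were Dhcr7 (1.67), Lss (1.41), Cyp51 (1.33), Fdps (1.19) and Mvd (1.10, or 0.84 without 1 glia-like cell). In CAST/Ei 4 of 9 were higher and 1 lower (median 0.70), where 22.7% of genes were higher and 22.1% lower (median 0.10). Dhcr7 (2.45), Mvd (1.45), Cyp51 (1.41) and Abcg1 (1.15, or 0.84 without 1 glia-like cell) were higher, and Lss (-2.96) was lower, a value that became -0.91 without the 1 neuron-like cell rich in Lss. Cyp51 had 133.8 and 129.6 CPM in glia-like cells of C57BL/6 and CAST/Ei against 52.5 and 48.1 CPM in neuron-like cells, 2.55-fold (2.37 to 2.74) and 2.70-fold (2.57 to 2.82) higher. Hmgcs1 differed little, at 1.04-fold and 0.961-fold, and so did Insig1, at 0.966-fold and 0.946-fold. In these sums the order of Hmgcs1 and Insig1 levels followed the strain more than these cell classes. The neuron-like sums join unlike clusters, with 1790 and 265 CPM of Hmgcs1 in clusters 1 and 5 of C57BL/6. In CAST/Ei these clusters had 4891 and 1763 CPM, so cluster 5 of CAST/Ei lay no higher than cluster 1 of C57BL/6. Of beside genes, Apoe was higher in glia-like cells (1.23 and 2.63), as was Srebf2 (1.65 and 1.90). The member counts depended on the unit of averaging: as means of log2 values per cell, no member in C57BL/6 and 1 in CAST/Ei was 2-fold higher.

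The ratios of fibroblast-like to neuron-like cells gave unlike counts in the strains. In C57BL/6, 4 of 9 members were at least 2-fold higher than in neuron-like cells and none lower (Mvd 1.83, Lss 1.59, Cyp51 1.42 and Dhcr7 1.06), where 27% of genes were higher and 19.9% lower (median 0.33). For Mvd 1 fibroblast-like cell held 59.6% of the reads, and without it the ratio was 0.64. For Dhcr7, leaving out the top cell gave 0.78. In CAST/Ei, with 10 fibroblast-like cells only, 2 members were higher (Fdps 1.05 and Dhcr7 1.02) and 4 lower (Lss -4.17, Mvd -3.11, Fdft1 -2.73 and Hmgcs1 -1.31), where 25.2% were higher and 28.5% lower (median 0.00). Without the top cell Fdps was at 0.58 and Dhcr7 at -0.14, so neither remained 2-fold higher. Mvd rested on 8 reads there, 0.64 CPM (0.28 to 1.26). Fdft1, with 20.6 CPM (18.2 to 23.3) against 142.6 CPM, kept its side in all 15 alternatives tried, between -2.85 and -1.52. Abcg1 had 46.1 and 58.8 CPM in fibroblast-like cells of C57BL/6 and CAST/Ei, the latter with 85.1% of reads from 1 cell and a median cell of 8.74 CPM. Without that cell Abcg1 was at -2.63 in place of -0.30, and Insig1, without its own top cell, at -1.50 in place of -0.997.

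Likeness of the enzymes across single cells of 1 class and group was described by Spearman correlations of log2 values, which share each cell's depth. The median over pairs of enzymes was above that over all pairs of genes in 7 of the 8 sets of cells. The median over the 21 pairs of enzymes was 0.22 in naive C57BL/6 and 0.17 in naive CAST/Ei neuron-like cells, where the median over all pairs of genes was 0.02 in either. It was 0.35 and 0.43 in cultured neuron-like cells (34 and 65 cells), where all pairs had 0.15 and 0.17. The closest naive pair was Fdps and Fdft1, which act in successive steps, at 0.63 in C57BL/6 and 0.44 in CAST/Ei. Insig1 followed the mean of the enzymes at 0.50 and 0.27 in naive and at 0.49 and 0.32 in cultured cells. Abcg1 was near 0 with the enzyme mean in naive (0.06 and 0.16) and cultured C57BL/6 cells (0.02), and at 0.60 in cultured CAST/Ei cells. The glial marker mean correlated with the enzyme mean at 0.65 and 0.64 in cultured neuron-like cells and at 0.09 in naive cells of either strain. For the fibroblast marker mean the values were 0.31 and 0.45 in cultured cells, and 0.29 and 0.05 in naive ones. Total reads correlated with the enzyme mean at -0.17 to -0.01. In glia-like cells the enzyme median was 0.25 and 0.30, and in the 43 fibroblast-like C57BL/6 cells 0.19, each with 0.03 over all pairs. The exception was the 10 fibroblast-like CAST/Ei cells, with -0.17 over 15 pairs of enzymes against 0.02.

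Genes outside the lists with the pattern most like the mean of the 7 enzymes over the 8 sums, among 7385 genes with a mean of at least 20 CPM, were Zfand1 (Pearson r 0.97), Osbpl9 (0.95), Tbc1d7 (0.94), Anxa7 (0.93) and Nudt18 (0.93). Osbpl9 encodes an oxysterol-binding protein relative and had 115.3 and 68.3 CPM in naive and cultured C57BL/6 and 136.3 and 118.3 CPM in CAST/Ei neuron-like cells. Of the enzymes, Hmgcs1 lay closest to that mean (0.83) and Fdps farthest (0.21). Among the genes most like Abcg1 were Atp1b3 (0.97), a subunit of the sodium pump, and Oxr1 (0.96). Highest correlations among many genes over 8 points that share strains and cultures are a description, and nothing more was read from them.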

How the data were processed

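Single cells were sequenced as poly-A RNA with Nextera libraries on a NextSeq 500, per the labels' protocols. Bowtie2, SAMtools and build mm10, an assembly of C57BL/6J, are named per the submitters' processing notes. Which program counted the reads, whether it used strand and how CAST/Ei variants were treated is not given in the sources used here. Raw counts of reads per gene and cell came as the authors' 1 deposited table, with 11251 genes, each with a read in at least 60 cells. Chip runs held up to 192 cells with conditions combined, per the labels, but no label ties a cell to a run, so no within-run value could be given.

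Cells were clustered (scanpy 1.11.5, scikit-learn 1.9.0, igraph 0.11.9, Leiden resolution 1) on 2000 variable genes without sterol and fatty acid genes, with 20 principal components and 15 neighbours. Classes were named from marker lists and may differ from the study's own. No doublet caller was run. As an alternative, the neuron-like cells of each group, naive ones included, that ranked highest by glial and fibroblast markers were left out. Counts were summed per class and group, and ratios used a pseudocount of 1 CPM and a filter of 5 CPM. Intervals are exact 95% Poisson and Clopper-Pearson intervals (scipy 1.17.1), and zero limits rest on 3 counts. No column was identical to another. On simulated data for cultured against naive neuron-like CAST/Ei cells, with 10070 genes, 100% of 200 genes changed 4-fold and 0% of unchanged genes passed 2-fold. The simulation drew independent noise per cell and gene, with no dominant single cells, clusters, or animal or culture effects. Its 0% thus says nothing of differences that rest on 1 cell, as for Lss and Mvd. Members and gene lists were chosen with earlier results of these data known. All 9 members are named, and list genes are named where they passed 2-fold or mark a step next to a member. Those with lower values were chosen after their values were seen. Alternatives covered pseudocount, filter, scaling, averaging, clustering and classes. The count of cluster 8 as neuron-like, the use of cluster 5 alone and the removal of top cells were added after seeing the data. Other tools were Python 3.11.15, numpy 2.4.6, pandas 2.3.3 and matplotlib 3.10.9. Some genes of the lists are not reported here.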

Additional observations from a re-analysis of the deposited data

Results flagged for a closer look

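Lss lay on opposite sides of 0 in the strains: its log2 ratio of cultured over naive neuron-like cells was -0.87 in C57BL/6 and 0.36 in CAST/Ei. The difference between strains was not tested. The CAST/Ei value rests on 1 cultured cell with 77.2% of the Lss reads, and without that cell it was -1.69.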

How the results depend on the processing

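No paired analysis was possible because replicate numbers in the labels are cell numbers and the results come from no test. Of the ratios of members under the alternatives, 546 moved by no more than their counting interval, 523 moved further and 2, of those at least 2-fold at first, turned direction: Abcg1 between strains in cultured neuron-like cells was -0.10 with cluster 5 alone, and Dhcr7 in CAST/Ei fibroblast-like against neuron-like cells was -0.14 without its top cell and 1.23 without the neuron-like top cell. Of ratios inside 2-fold, 21 changed sign under at least 1 alternative, in 50 values. The counts between naive strains, 3 higher and 1 lower, moved under none of the alternatives run, and Abcg1 was at least 2-fold lower in culture in all of them, from -5.24 to -3.39 in C57BL/6 and from -5.40 to -1.92 in CAST/Ei. With a pseudocount of 10 CPM, 2 and 1 members were lower in culture in C57BL/6 and CAST/Ei, 2 were higher in C57BL/6 fibroblast-like cells, 0 in CAST/Ei ones and 2 in C57BL/6 glia-like cells. With means of log2 values per cell, 0 were higher and 8 lower in CAST/Ei culture, 1 was higher in fibroblast-like cells of either strain and 2 lower in those of CAST/Ei, and 0 and 1 were higher in glia-like cells of C57BL/6 and CAST/Ei. That setting put the median of all genes in CAST/Ei culture at -0.70 in place of 0.04, with 9.96% higher and 39.6% lower. Mean CPM per cell left 0 higher in CAST/Ei fibroblast-like and 3 in C57BL/6 glia-like cells, and median-of-ratios scaling also 3 there. That scaling put the all-gene median between strains in culture at -0.08 in place of 0.19, with 16.6% higher and 19.5% lower. With Ward clusters 2 were lower in CAST/Ei culture and 0 higher in CAST/Ei fibroblast-like cells, and with cells classed by their own markers 2 were lower in those cells. With cluster 5 alone, 8 were lower in C57BL/6 culture, 8 higher in C57BL/6 fibroblast-like and 8 in glia-like cells, 4 higher in CAST/Ei fibroblast-like cells, and 0 lower between cultured strains. Leave-one-out of the top cell gave 3 to 7 lower in CAST/Ei culture, 2 to 4 higher in C57BL/6 and 0 to 2 in CAST/Ei fibroblast-like cells, 0 to 1 lower between cultured strains and 0 to 1 lower in CAST/Ei glia-like cells. The cause of these shifts was not tested. Low counts limit Mvd, Fdps, Lss and Dhcr7 most.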

Other observations

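The unnamed naive clusters enter none of the class sums given above, apart from the alternative that counted cluster 8 as neuron-like. In cluster 6, Hmgcs1 had 3228 CPM in 16 C57BL/6 and 6397 CPM in 18 CAST/Ei cells, Lss 13.1 and 120 CPM, Dhcr7 65.7 and 93.7 CPM, Insig1 408 and 135.1 CPM, and Abcg1 350.2 and 636 CPM. In the 31 C57BL/6 cells of cluster 8, Hmgcs1 had 2175 CPM, Lss 7.50 CPM, Dhcr7 38.95 CPM, Insig1 109.4 CPM and Abcg1 843 CPM.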
